A study of Mus musculus with 15 samples.

Results

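The genes described here are 35 genes of heart muscle and of its progenitors: proteins of the sarcomere, genes of calcium handling, secreted hormones and ligands of the heart, and the transcription factors that specify it. Their rule is a list of gene names, and the list was chosen with earlier results of these data known. Every probe whose gene name in the array files equalled a member was taken, 49 probes in all. The scanner software marks each spot as well above background or not, and a probe needed this mark on at least 3 arrays of 1 group. In this way 39 probes of 32 members were kept, among 21184 genes tested in all. Pln, the phospholamban gene, was well above background on 0 of 15 arrays, the calcium channel gene Cacna1c on 1 and the ligand gene Bmp10 on 2, and these 3 members are not described further.

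Total RNA was measured on 1-colour Agilent arrays in mouse cells. The 4 groups were embryoid bodies named EB9 in the labels with the Cbx7 knockdown KD33 (4 arrays), control EB9 (4), mouse embryonic stem (ES) cells with KD33 (4) and control ES cells (3). Embryoid bodies are aggregates in which ES cells differentiate, and the labels do not spell out what the 9 stands for. Cbx7 is a chromodomain subunit of Polycomb repressive complex 1. The treatment label of the controls reads "none", while the study's design text writes the ES control as shCtr, so it names a control hairpin. KD33 is 1 hairpin, so no difference below separates the loss of Cbx7 from other effects of that hairpin. The arrays are called biological replicates, without a word on separate cultures, so p-values measure the spread between these arrays.

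Levels are log2 processed signals after subtraction of each array's own 75th percentile, so a negative level lies below that percentile. A change is a difference of mean levels, and a gene was called changed at an adjusted p under 0.05 in limma. The share of features marked well above background ranged from 62.5% to 75.4% over the arrays, and saturation was not seen. The arrays lay on 4 slides, each group at 1 fixed position of the slide, and slide 4 held no ES control, so an effect of position cannot be told apart from one of group. The 12 ES cell markers fell without exception in EB9, with summed linear levels of 27.4 to 31.7 in KD33 EB9, 21.6 to 26.8 in control EB9, 373 to 443 in KD33 ES cells and 406 to 417 in control ES cells. Of the 2 Cbx7 probes, A_55_P1980401 lay 1.91 log2 units lower in KD33 ES cells (adjusted p = 0.256), and A_55_P1980408 changed by −0.13 (adjusted p = 0.733). With the slide as a term the difference of A_55_P1980401 was −1.41 (adjusted p = 1e-04), while that of A_55_P1980408 was −0.03 (adjusted p = 0.868), so the probes did not both call a depletion. In EB9 they were −0.27 (adjusted p = 0.221) and −0.16 (adjusted p = 0.36), and no depletion was called. A_55_P1980401 followed the slide. In EB9 it read −8.69 to −8.16 on slides 1 and 4, not well above background, and −5.92 to −5.40 on slides 2 and 3. On slides 2 and 3 the EB9 levels were −5.78 and −5.92 with KD33 and −5.42 and −5.40 in the control. In KD33 ES cells this probe was not well above background on slide 1 (−7.85) or slide 4 (−7.37) either. Why no depletion was called in EB9 was not tested.

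The heart forms from mesoderm in which Nkx2-5, the T-box factors, the Hand factors, Isl1 and Mef2c switch on the genes of the contractile machine. That machine is the sarcomere, in which thick filaments of myosin slide along thin filaments of actin, tropomyosin and the calcium-sensing troponin complex, anchored at the Z-disc. In ES cells many developmental regulators are held silent by Polycomb complexes, which bind preferentially at promoters rich in the dinucleotide CpG. In bulk RNA, fewer cells of a type and less RNA per cell cannot be told apart.

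Sequences of 5 probes are shown because 4 of these genes rose and Tnni3 fell between ES cells and EB9, and these are the letters that measured them. The 60-base probes, 5′ to 3′, are those of the array files, with positions on build mm9. Of the 5, 4 span more than 60 bases of the genome and so cross an exon junction. Exon numbers were not determined here.
Tnnt2, A_51_P338262, chr1:137747976-137748288: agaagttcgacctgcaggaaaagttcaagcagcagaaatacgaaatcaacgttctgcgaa
Tnni1, A_52_P657360, chr1:137705328-137706203: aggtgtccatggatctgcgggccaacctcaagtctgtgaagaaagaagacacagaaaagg
Tnni3, A_51_P386983, chr7:4472043-4472102: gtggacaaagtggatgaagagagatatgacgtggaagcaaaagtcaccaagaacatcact
Tnnc1, A_51_P461894, chr14:32023360-32023776: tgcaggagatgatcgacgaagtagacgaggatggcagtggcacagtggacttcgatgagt
Myl7, A_65_P10195, chr11:5798186-5798435: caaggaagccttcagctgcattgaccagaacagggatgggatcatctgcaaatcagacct

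Promoter windows from RefSeq (build GRCm38.p6), 250 bases before to 50 after the transcription start, were matched by symbol for 31 of the 35 members (41 windows). Atp2a2, Hand1, Myocd and Tbx5 had none. The windows of 3 regulators that were higher in KD33 ES cells are shown with each CpG in capitals.
Isl1, chr13:116309639-116309938, minus strand: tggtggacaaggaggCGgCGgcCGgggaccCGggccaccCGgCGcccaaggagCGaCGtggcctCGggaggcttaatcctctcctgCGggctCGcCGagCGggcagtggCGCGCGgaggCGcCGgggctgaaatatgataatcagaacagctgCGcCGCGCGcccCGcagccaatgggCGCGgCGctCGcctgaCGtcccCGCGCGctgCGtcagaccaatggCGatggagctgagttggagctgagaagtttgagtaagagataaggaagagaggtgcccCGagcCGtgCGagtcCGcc
Hand2, chr8:57320733-57321032, plus strand: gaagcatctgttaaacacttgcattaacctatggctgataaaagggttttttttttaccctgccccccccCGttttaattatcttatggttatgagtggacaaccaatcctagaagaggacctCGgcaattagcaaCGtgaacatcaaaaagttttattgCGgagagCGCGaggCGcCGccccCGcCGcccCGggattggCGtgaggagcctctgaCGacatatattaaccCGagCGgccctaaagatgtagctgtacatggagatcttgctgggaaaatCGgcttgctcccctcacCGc
Nkx2-5, chr17:26841516-26841815, minus strand: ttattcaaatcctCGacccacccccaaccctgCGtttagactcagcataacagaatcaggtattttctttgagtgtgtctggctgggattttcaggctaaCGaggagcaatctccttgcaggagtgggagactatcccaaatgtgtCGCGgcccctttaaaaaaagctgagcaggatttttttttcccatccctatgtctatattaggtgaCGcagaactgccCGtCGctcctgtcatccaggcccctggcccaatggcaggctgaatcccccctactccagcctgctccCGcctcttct
The Isl1 window held 37 CpG, that of Hand2 17 and that of Nkx2-5 9, against a median of 7 over all 32851 windows. The 10 windows of 8 regulators had a median of 12.5 CpG (range 1 to 37), the 10 thick filament windows 3.5 and the 8 thin filament windows 5. Regulators were thus not all CpG-rich: the Smyd1 window held 3 and 1 of the 3 Mef2c windows held 1. Irx4 (31 CpG), Tbx20 (26) and Tbx18 (15) had CpG-rich windows too. In the fit as reported none of these was called in KD33 ES cells (limma adjusted p = 0.819, 0.448 and 0.106). With normexp background correction Tbx20 (0.33, adjusted p = 0.0139) and Tbx18 (0.32, adjusted p = 0.0435) were called higher there. A link between CpG and the change with the hairpin was not tested.

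Motifs were searched on both strands of each window. The CArG box, the site bound by serum response factor, stood in 5 of the 41 member windows (12.2%), against 1.63% of all windows. Those 5 windows belong to 4 genes, shown with the box in capitals; the second Ldb3 window overlaps the first and holds the same box.
Actc1, chr2:114052826-114053125, minus strand: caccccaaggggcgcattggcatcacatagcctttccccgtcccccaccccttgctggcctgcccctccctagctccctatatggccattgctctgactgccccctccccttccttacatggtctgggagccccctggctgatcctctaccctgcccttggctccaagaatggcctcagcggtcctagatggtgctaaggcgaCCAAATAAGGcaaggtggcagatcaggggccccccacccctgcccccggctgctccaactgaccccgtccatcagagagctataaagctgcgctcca
Myl7, chr11:5898733-5899032, minus strand: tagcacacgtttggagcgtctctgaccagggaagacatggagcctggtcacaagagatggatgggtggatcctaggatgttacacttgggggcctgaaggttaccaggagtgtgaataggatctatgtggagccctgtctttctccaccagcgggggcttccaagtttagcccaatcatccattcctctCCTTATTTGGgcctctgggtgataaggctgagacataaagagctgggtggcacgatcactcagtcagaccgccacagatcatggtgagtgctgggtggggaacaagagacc
Myl3, chr9:110763428-110763727, plus strand: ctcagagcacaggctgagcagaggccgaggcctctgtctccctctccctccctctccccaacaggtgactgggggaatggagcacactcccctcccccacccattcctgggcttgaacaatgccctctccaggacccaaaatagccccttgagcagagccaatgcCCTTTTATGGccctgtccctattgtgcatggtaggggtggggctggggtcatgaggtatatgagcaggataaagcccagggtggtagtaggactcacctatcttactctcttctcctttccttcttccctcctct
Ldb3, chr14:34588632-34588931, minus strand: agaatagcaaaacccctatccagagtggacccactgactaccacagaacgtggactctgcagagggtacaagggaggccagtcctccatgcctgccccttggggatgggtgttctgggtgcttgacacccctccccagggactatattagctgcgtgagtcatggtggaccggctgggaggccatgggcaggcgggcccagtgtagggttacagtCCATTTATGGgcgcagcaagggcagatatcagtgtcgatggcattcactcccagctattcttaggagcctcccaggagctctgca
The box lay at bases −47 to −38 from the annotated start in Actc1, −61 to −52 in Myl7, −85 to −76 in Myl3 and −35 to −26 in Ldb3. In the second Ldb3 window it lay at −109 to −100. The TATA letters of Actc1 lay at 34 to 39, after the annotated start. Between control EB9 and control ES cells Actc1, Myl7 and Myl3 were higher in EB9 and Ldb3 was lower, as given below. The MEF2 site was found in 4.88% of member windows (Ttn and Mybpc3) and in 3.19% of all windows. The TATA box TATAAA was in 22% of member windows and 13.6% of all windows. The letters AGATAA, read by GATA factors, were in 17.1% of member windows and 11.2% of all. The T-box letters AGGTGT were in 17.1% of member windows, against 13.7% of all. The E-box CANNTG was in 82.9% of member windows and 72.3% of all. These are matches of letters, and they say nothing of binding.

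Embryoid bodies and ES cells differed in most members. In control EB9 against control ES cells, 18 of the 32 members were higher and 10 lower (87.5%), where 74.8% of all genes were called, 33.3% higher and 41.5% lower. In all 28 of these the groups did not overlap, as in 72.9% of all genes. The median change of the members was 1.21 log2 units, against −0.14 for all genes. In KD33 EB9 against KD33 ES cells, which share no array with the control comparison, 19 were higher and 8 lower (84.4%), where 77.9% of all genes were called, 33.7% higher and 44.2% lower, and 74.2% had groups that did not overlap. The median change of the members there was 1.32, against −0.18 for all genes. The members called in both were 18 higher in both and 8 lower in both, and 0 went opposite ways. Of all 21184 genes, 6191 were higher in both, 7864 lower in both and 361 opposite. By role, 8 of 11 regulators and 5 of 6 thin filament genes were higher in control EB9, while 4 of 8 thick filament genes and 2 of 3 Z-disc genes were lower.

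The filter itself set the direction of some members. Actc1, Csrp3, Tbx20, Mef2c and Myocd were kept through EB9 arrays alone and Tbx18 through ES arrays alone. Of the 26 members kept at both stages, 13 were higher and 9 lower in control EB9 than in control ES cells (84.6%), where 74% of the 18425 genes kept at both stages were called. In KD33 EB9 against KD33 ES cells the same 26 had 14 higher and 7 lower (80.8%), where 77.4% of those genes were called. Their median change was 0.59 with KD33 and 0.64 in the controls, against −0.17 and −0.13 for those genes. By role, 5 of 7 regulators and 4 of 5 thin filament genes were higher in the control comparison, and 4 of 8 thick filament genes and 2 of 2 Z-disc genes were lower.

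The knockdown called fewer members. In KD33 ES cells 7 members were higher and 3 lower (31.2%), where 38.5% of all genes were called (22% higher and 16.5% lower). In KD33 EB9 1 member was higher and 2 were lower (9.38%), where 15.2% of all genes were called, 7.96% higher and 7.2% lower. The effect of the knockdown in EB9 minus that in ES cells was called for 13 members, 4 positive and 9 negative (40.6%), where 29.7% of all genes were called, 12.7% positive and 17% negative. With the slide as a term, 7 members were higher and 4 lower in KD33 ES cells (background 47.5%), and 1 was higher and 2 lower in KD33 EB9 (background 26.7%). The members' median knockdown change was −0.06 in EB9 and 0.10 in ES cells, and −0.01 and 0.04 for all genes. Among the 11 regulators, 5 were higher and 1 lower in KD33 ES cells, with a median of 0.45, and 0 were higher and 1 lower in KD33 EB9, with a median of −0.14.

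**Figure D1:**
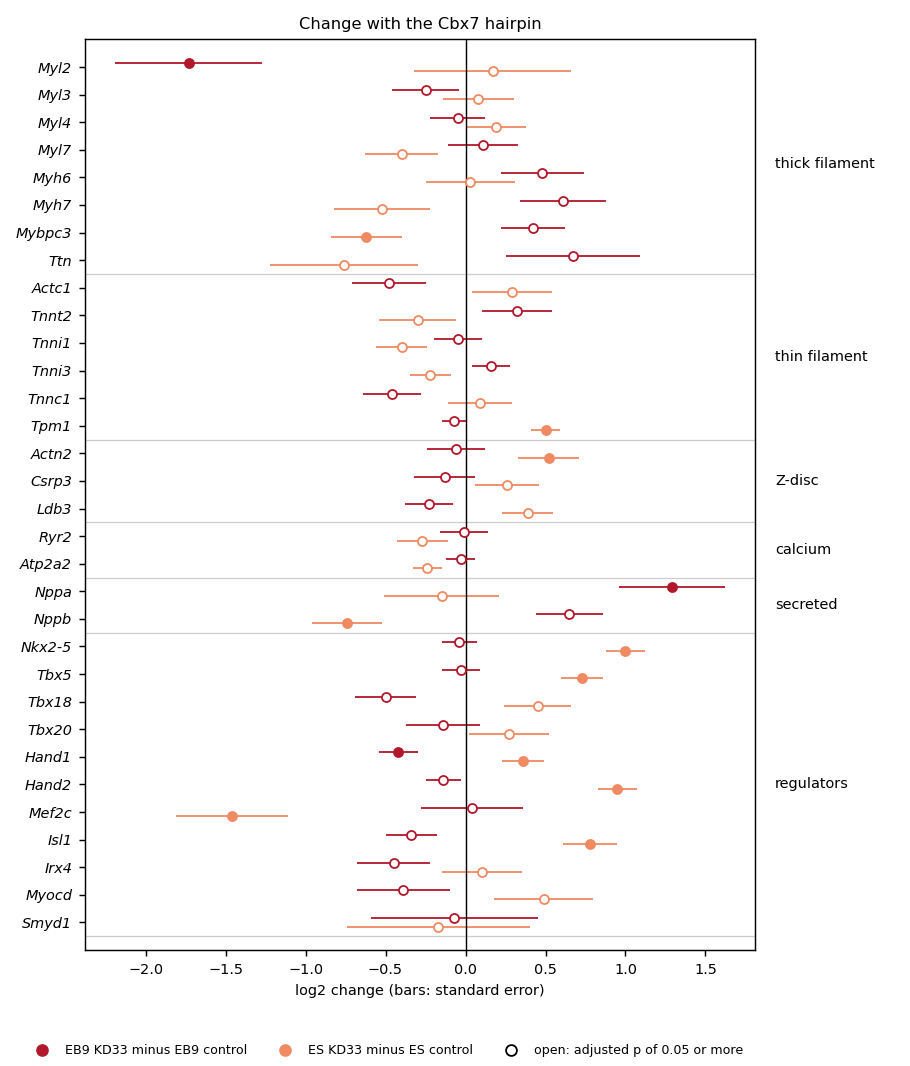
Log2 change with the hairpin for the 32 kept members, grouped by role, on the x axis; dark red points are KD33 EB9 minus control EB9, orange points KD33 ES cells minus control ES cells, bars the standard error, and filled points an adjusted p under 0.05. The 5 regulators called higher in ES cells lie between 0.36 and 1.00, and their changes in EB9 lie at or below −0.03.

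Among the regulators, the bHLH factor gene Hand2, needed for the right ventricle, was among the genes with a large change between stages. Hand2 levels were 2.56, 2.61, 2.47 and 2.56 in KD33 EB9 and 2.65, 2.49, 2.77 and 2.87 in control EB9. They were −5.03, −4.93, −4.97 and −4.95 in KD33 ES cells and −6.25, −5.91 and −5.61 in control ES cells. The EB9 arrays of both kinds overlap, while each KD33 ES array lies above each control ES array. Hand2 was 8.62 log2 units higher in control EB9 than in control ES cells (SE 0.12, adjusted p = 3.98e-15, limma). It was 0.95 higher in KD33 ES cells (SE 0.12, adjusted p = 5.68e-05), a 1.93-fold difference at a level far below that of EB9, and it changed by −0.14 in KD33 EB9 (adjusted p = 0.462). The Hand2 rise in KD33 ES cells was smaller, though still called, with normexp background correction (0.55, adjusted p = 0.000821) and in the authors' normalised values (0.39, adjusted p = 0.00395). The knockdown effect in EB9 minus that in ES cells was −1.09 (adjusted p = 0.000368), −0.71 with normexp correction and −0.53 in the authors' values.

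Nkx2-5 encodes the homeodomain factor that marks heart progenitors. Its levels in EB9 were −2.70, −2.36, −2.16 and −2.29 with KD33 and −2.22, −2.29, −2.37 and −2.48 in the control. In ES cells they were −2.83, −2.57, −2.63 and −2.75 with KD33 and −3.89, −3.61 and −3.57 in the control. The KD33 ES arrays stand apart from the control ES arrays and reach the range of EB9. Nkx2-5 was 2.00-fold higher in KD33 ES cells (1.00 log2 units, SE 0.12, adjusted p = 4.1e-05), where 49.6% of all genes had groups that do not overlap, and the change in KD33 EB9 was −0.04 (adjusted p = 0.871). EB9 exceeded ES cells by 0.31 with KD33 (SE 0.11, adjusted p = 0.0222) and by 1.35 in the controls (SE 0.12, adjusted p = 2.56e-07). The call with KD33 was lost without ES KD33 array 1 or 4 or EB9 KD33 array 3 or 4, with changes of 0.24 to 0.30.

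Isl1, a LIM homeodomain factor of the second heart field, had levels of −1.54, −0.65, −1.14 and −1.24 in KD33 EB9 and −1.11, −0.67, −0.67 and −0.76 in control EB9. In ES cells the levels were −3.46, −3.29, −3.22 and −3.32 with KD33 and −4.26, −4.12 and −3.92 in the control. Again the ES groups do not overlap and the EB9 groups do. The change was 0.78 in KD33 ES cells (SE 0.17, adjusted p = 0.00349) and −0.34 in KD33 EB9 (SE 0.16, adjusted p = 0.189), and the difference of the effects was −1.12 (adjusted p = 0.00353). Isl1 was 3.29 higher in control EB9 than in control ES cells.

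Tbx5, the T-box factor of the left ventricle and atria, lay between −0.58 and −0.18 in KD33 EB9 and between −0.50 and −0.26 in control EB9. In KD33 ES cells it read −5.64, −5.97, −5.55 and −5.91, and in control ES cells −6.54, −6.70 and −6.25. Only 1 of the 3 control ES arrays was well above background, so the 0.73 difference in ES cells (SE 0.13, adjusted p = 0.000808) sits at the edge of detection. It was 0.45 with normexp correction and 0.24 in the authors' normalised values, still under the threshold (adjusted p = 0.000745 and 0.025). Tbx5 was 70.9-fold higher in control EB9 than in control ES cells, a log2 change of 6.15 that was 4.05 in the authors' values.

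Hand1, the other Hand factor, was called in both knockdown comparisons, in opposite directions. Its levels were 2.26, 2.84, 2.47 and 2.40 in KD33 EB9 and 2.76, 2.96, 2.96 and 2.96 in control EB9. ES levels were −3.51, −3.60, −3.77 and −3.83 with KD33 and −3.98, −3.90 and −4.24 in the control. In EB9 the array of KD33 replicate 2 lies within the control range, while in ES cells the groups stand narrowly apart. The change was −0.42 in EB9 (SE 0.12, adjusted p = 0.0348) and 0.36 in ES cells (SE 0.13, adjusted p = 0.0414), and their difference was −0.78 (adjusted p = 0.00502). Both calls were lost on leaving out single arrays: in EB9 without KD33 1, 3 or 4 or control 2, 3 or 4 (changes of −0.41 to −0.34), and in ES cells without ES KD33 1 or 2, ES control 2 or 4, or EB9 arrays 3 or 4 of either kind (0.26 to 0.39).

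Tbx20, a T-box factor of the myocardium, was not well above background on any ES array. It read −0.93, −0.64, −0.54 and −0.80 in KD33 EB9 and −0.74, −0.62, −0.41 and −0.58 in control EB9, and it was at least 77.1-fold higher in control EB9 than in control ES cells. A fold of this kind is meant as a lower bound. Each array of the group below background enters with the dimmest signal that its scanner file marks as well above background. Where the gene's own level is higher, that level enters instead. In KD33 ES cells the 3 kept Tbx20 probes differed from the control by 0.27, 1.35 and 0.59, all below background. In a limma fit to every kept probe, which called 38.1% of probes there, their adjusted p was 0.445, 0.0152 and 0.0113. Myocd, the smooth and cardiac muscle coactivator, was likewise below background in ES cells and at least 6.71-fold higher in control EB9. Mef2c, a MADS-box factor, reached −3.45 to −3.22 in KD33 EB9 and −3.52 to −3.19 in control EB9. In ES cells Mef2c was well above background on 0 of 4 KD33 and 1 of 3 control arrays, at −8.57 to −7.43 and −7.77 to −6.01, and its call of −1.46 (SE 0.35, adjusted p = 0.00501) rests on signals near background. With normexp background correction it was 0.01 (adjusted p = 0.938), and without the slide 1 arrays it was −1.25 (adjusted p = 0.0808).

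Of the other regulators, 3 did not rise. Tbx18, a factor of the epicardium and sinus node, was below background on all 8 EB9 arrays and at least 1.46-fold lower in control EB9 than in control ES cells; that call was lost without ES control 3 or 4, at −0.55 and −0.53, and with normexp correction, at −0.23. Irx4, a ventricular homeodomain factor, averaged −4.27 ± 0.42 in KD33 EB9 and −3.81 ± 0.50 in control EB9 (SD, n = 4 each), and −4.02 ± 0.12 (n = 4) in KD33 ES cells and −4.12 ± 0.10 (n = 3) in control ES cells, with no call in any comparison. Smyd1, a muscle methyltransferase gene, followed the slide: on slides 1 and 4 its levels were −1.29 to −0.21 and on slides 2 and 3 they were 0.31 to 0.87, in each group. With the slide as a term Smyd1 was lower in EB9 by −0.47 with KD33 (adjusted p = 0.00013) and by −0.42 in the controls (adjusted p = 0.000676), and its second probe was well above background on 2 arrays only.

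**Figure D2:**
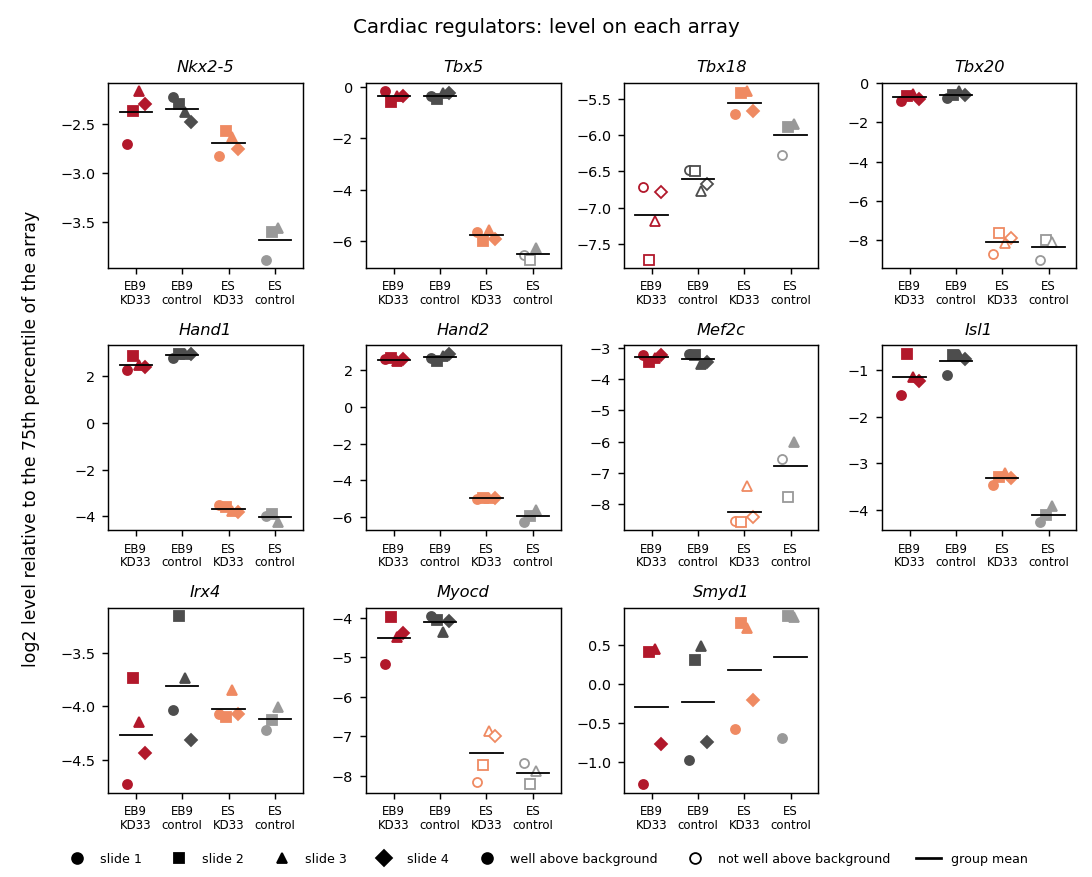
Level of each of the 11 cardiac regulators on each array, in log2 units above or below that array's 75th percentile (y axis), for KD33 EB9, control EB9, KD33 ES cells and control ES cells (x axis); marker shape gives the slide, open markers are not well above background, and lines are group means. For Nkx2-5, Hand2 and Isl1 the KD33 ES arrays lie above the control ES arrays while the EB9 groups overlap, and Smyd1 separates by slide.

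Of the thin filament genes, Actc1, the cardiac alpha-actin gene, was below background on all 7 ES arrays. It read −1.28, 0.11, −0.38 and −0.37 in KD33 EB9 and 0.18, 0.13, −0.15 and −0.16 in control EB9. It was at least 116-fold higher in control EB9 than in control ES cells and at least 70.5-fold higher in KD33 EB9 than in KD33 ES cells. The Actc1 change with KD33 in EB9 was −0.48 (SE 0.23, adjusted p = 0.199), with KD33 replicate 1 lowest. Acta1, the skeletal alpha-actin gene, which is closely related, was 6.08 higher in control EB9 than in control ES cells, and the part of a shared signal between the actin probes was not tested.

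Tnni1, the slow skeletal and fetal cardiac inhibitory troponin gene, and Tnni3, the adult cardiac one, went opposite ways. Tnni1 read 1.34, 1.00, 1.11 and 1.30 in KD33 EB9 and 1.57, 0.89, 1.18 and 1.32 in control EB9, against −4.39 to −3.92 in KD33 ES cells and −3.83 to −3.53 in control ES cells. Tnni3 read −3.69, −3.58, −3.59 and −3.65 in KD33 EB9 and −4.16, −3.44, −3.78 and −3.77 in control EB9, against −1.53 to −1.19 in KD33 ES cells and −1.10 to −1.07 in control ES cells. For both genes each EB9 array stands apart from each ES array. In control EB9 against control ES cells Tnni1 was 31.2-fold higher (4.96, SE 0.16, adjusted p = 5.86e-12) and Tnni3 was 6.52-fold lower (−2.70, SE 0.13, adjusted p = 3.36e-10). Tnni1 changed in KD33 ES cells by −0.40 (adjusted p = 0.0696), and with the slide as a term by −0.44 (adjusted p = 0.000465).

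Tnnt2, the cardiac troponin T gene, was 3.59 higher in control EB9 (SE 0.24), and Tnnc1, the cardiac and slow troponin C gene, 3.52 higher (SE 0.20). With normexp correction the Tnnc1 change was 2.33, still called. Tpm1, alpha-tropomyosin, read 3.88 to 4.17 in KD33 EB9 and 3.94 to 4.30 in control EB9, and 3.26, 3.1, 3.09 and 3.18 in KD33 ES cells against 2.75, 2.60 and 2.63 in control ES cells. The ES groups do not overlap, and the change there was 0.50 (SE 0.09, adjusted p = 0.000819), a 1.41-fold rise. The 5 Tpm1 probes disagreed: 4 rose by 0.18 to 0.66 in KD33 ES cells, while A_55_P2187053 changed by 0.01 (adjusted p = 0.938). The same probe changed by 0.06 between control EB9 and control ES cells, where the other 4 rose by 1.40 to 2.88. The array annotation assigns the 5 probes to 4 different transcripts of the gene.

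Thick filament genes split. Myh7, the slow beta-myosin heavy chain of the fetal heart, was 6.79-fold higher in control EB9 than in control ES cells (2.76, SE 0.30), and the ventricular and slow skeletal light chain gene Myl3 was 5.60-fold higher (2.49, SE 0.22). The atrial light chain gene Myl7 was 2.1-fold higher (1.07, SE 0.23). The other heavy chain gene, Myh6, was 2.88-fold lower (−1.52, SE 0.28), Myl4, the atrial and embryonic essential light chain gene, 3.03-fold lower (−1.60, SE 0.19) and Ttn, the giant spring of the sarcomere, 2.58-fold lower (−1.37, SE 0.46). Myl4 and Myh6 were bright in ES cells: Myl4 averaged 2.89 ± 0.15 (SD, n = 4) in KD33 and 2.70 ± 0.06 (n = 3) in control ES cells. The second Myh6 probe was well above background on 1 of 15 arrays, against 15 for the one reported, and 3 of the 4 Ttn probes were not kept, so these falls rest on 1 probe each. The Ttn change was −0.55 with normexp correction and −0.48 in the authors' values, still called.

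Myl2, the ventricular regulatory light chain gene, was lower in EB9 and lowest with KD33. It read −7.53, −7.23, −6.62 and −8.05 in KD33 EB9, with 1 array well above background, and −6.43, −5.28, −4.12 and −6.68 in control EB9, with 3. In ES cells it read −2.95 to −2.73 with KD33 and −3.1 to −2.96 in the control. The change in KD33 EB9 was −1.73 (SE 0.46, adjusted p = 0.0238), with overlapping groups. The call was lost with normexp correction (−0.42, adjusted p = 0.131), in the authors' values (−0.47, adjusted p = 0.0805), without EB9 KD33 1 (−1.67) or 4 (−1.50) and without EB9 control 2 (−1.62). Mybpc3, the cardiac myosin-binding protein gene, read −2.08, −1.97, −2.0 and −2.08 in KD33 ES cells and −1.46, −1.36 and −1.43 in control ES cells. These groups are narrow and apart, yet the change of −0.62 (SE 0.22, adjusted p = 0.0402) was lost without any single ES array (−0.64 to −0.59), and with the slide as a term it was −0.61 (adjusted p = 0.0704). The standard error is shared with EB9, where the Mybpc3 arrays spread more widely (SD 0.33 with KD33 and 0.47 in the control).

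Z-disc genes were lower in EB9 except Csrp3, the muscle LIM protein gene. Csrp3 was below background in ES cells and at least 4.91-fold higher in control EB9. Actn2, alpha-actinin, averaged −4.98 ± 0.08 in KD33 EB9 and −4.92 ± 0.46 in control EB9 (SD, n = 4 each), and −2.92 ± 0.19 (n = 4) in KD33 ES cells and −3.45 ± 0.10 (n = 3) in control ES cells. Its change of 0.52 in KD33 ES cells (SE 0.19, adjusted p = 0.0488) lay at the threshold. That call was lost without any single ES array except KD33 2 and without any single KD33 EB9 array, at 0.47 to 0.58. Ldb3, the PDZ and LIM protein also called cypher, was 1.08 lower in control EB9 (SE 0.16), and the knockdown effects differed by −0.62 (adjusted p = 0.0462): −0.23 in EB9 and 0.39 in ES cells, neither called. The stage changes of dim Z-disc genes were smaller in the authors' values but still called, at −0.77 for Actn2, against −1.47 as reported, and −0.57 for Ldb3. These falls rest on 1 probe each. The second Actn2 probe was well above background on 1 array. The second Ldb3 probe, well above background on 3 arrays and not kept, averaged −6.11 in control EB9 and −6.82 in control ES cells.

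**Figure D3:**
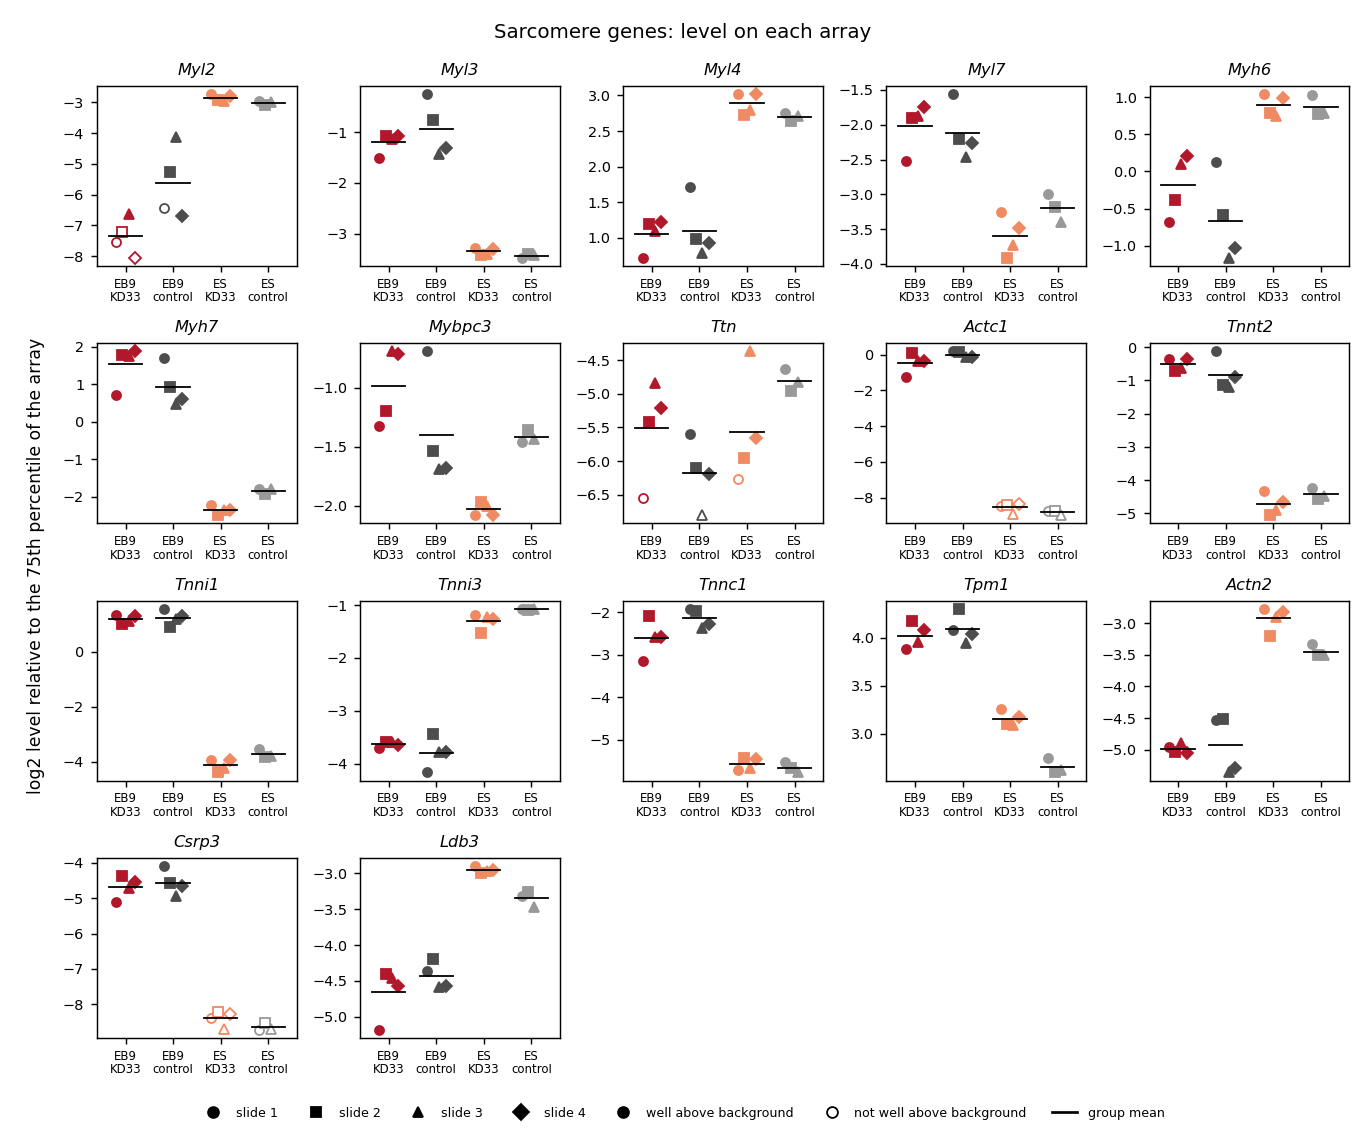
Level of each of the 17 kept sarcomere genes on each array, in log2 units above or below that array's 75th percentile (y axis), for KD33 EB9, control EB9, KD33 ES cells and control ES cells (x axis); marker shape gives the slide, open markers are not well above background, and lines are group means. Actc1 and Csrp3 are open in all ES arrays, Tnni3, Myl2, Myl4 and Myh6 are higher in ES cells than in EB9, and for Myh7 and Mybpc3 the slide 1 arrays of EB9 reverse the order of the other slides.

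Of the calcium handling genes, Atp2a2, the SERCA2 calcium pump of the sarcoplasmic reticulum, was 1.74-fold lower in control EB9 than in control ES cells by its reported probe (−0.80, SE 0.09). The second Atp2a2 probe changed there by −0.19 (adjusted p = 0.369), so this fall rests on 1 of 2 probes. Ryr2, the ryanodine receptor, was not called in any comparison. Ryr2 averaged −4.73 ± 0.23 in KD33 EB9 and −4.72 ± 0.26 in control EB9 (SD, n = 4 each), and −4.90 ± 0.11 (n = 4) in KD33 ES cells and −4.63 ± 0.29 (n = 3) in control ES cells. The 2 Atp2a2 probes disagreed in KD33 ES cells: the reported one (A_51_P451075) changed by −0.24 (adjusted p = 0.0597) and the other (A_52_P168097) by 0.72 (adjusted p = 0.0065) in a fit to every kept probe, which called 38.1% of probes there. No direction is therefore given for Atp2a2 there.

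Of the natriuretic peptide genes, Nppa was called higher in KD33 EB9 and Nppb was not. Nppa read −4.55, −3.32, −3.35 and −3.52 in KD33 EB9 and −4.99, −4.66, −4.82 and −5.46 in control EB9. Each KD33 array lies above each control array, as was the case for 15.7% of all genes in either direction, and KD33 replicate 1 is closest to the controls. The change was 1.29 (SE 0.33, adjusted p = 0.0212), a 2.45-fold rise, and with the slide as a term its adjusted p was 0.00221. The Nppa rise was 0.83 with normexp correction (adjusted p = 0.00536) and 0.76 in the authors' values (adjusted p = 0.00169). The call was lost without EB9 KD33 3 (1.18), EB9 KD33 4 (1.24) or EB9 control 4 (1.14). In ES cells Nppa lay near background and changed by −0.15 (adjusted p = 0.806). Its rise of 0.98 between control ES cells and control EB9 (adjusted p = 0.0252) was lost with normexp correction (0.38) and without ES control 2 (0.66) or EB9 control 2 (0.87) or 3 (0.93).

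Nppb, its paralogue, read −4.16, −3.98, −3.99 and −3.69 in KD33 EB9 and −4.58, −3.86, −5.08 and −4.90 in control EB9. In ES cells it read −3.71, −3.92, −3.98 and −3.85 with KD33 and −3.02, −3.27 and −3.08 in the control. EB9 control 2 lies among the KD33 EB9 arrays, and the ES groups do not overlap. The change was 0.65 in KD33 EB9 (SE 0.21, adjusted p = 0.0539) and −0.74 in KD33 ES cells (SE 0.22, adjusted p = 0.0189), and their difference was 1.39 (SE 0.30, adjusted p = 0.00418). Without EB9 control 2 the change in EB9 was 0.89 (adjusted p = 0.00127), and without ES control 2 or 4 that in ES cells was no longer called, at −0.69 and −0.72. The ES call was also lost without the slide 1 arrays, at −0.74 (adjusted p = 0.1), and with normexp correction, at −0.37 (adjusted p = 0.0506). In the authors' values the ES change of Nppb was −0.46 (adjusted p = 0.0131). Its stage change in the controls, −1.48 as reported, was −0.95 with normexp correction.

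**Figure D4:**
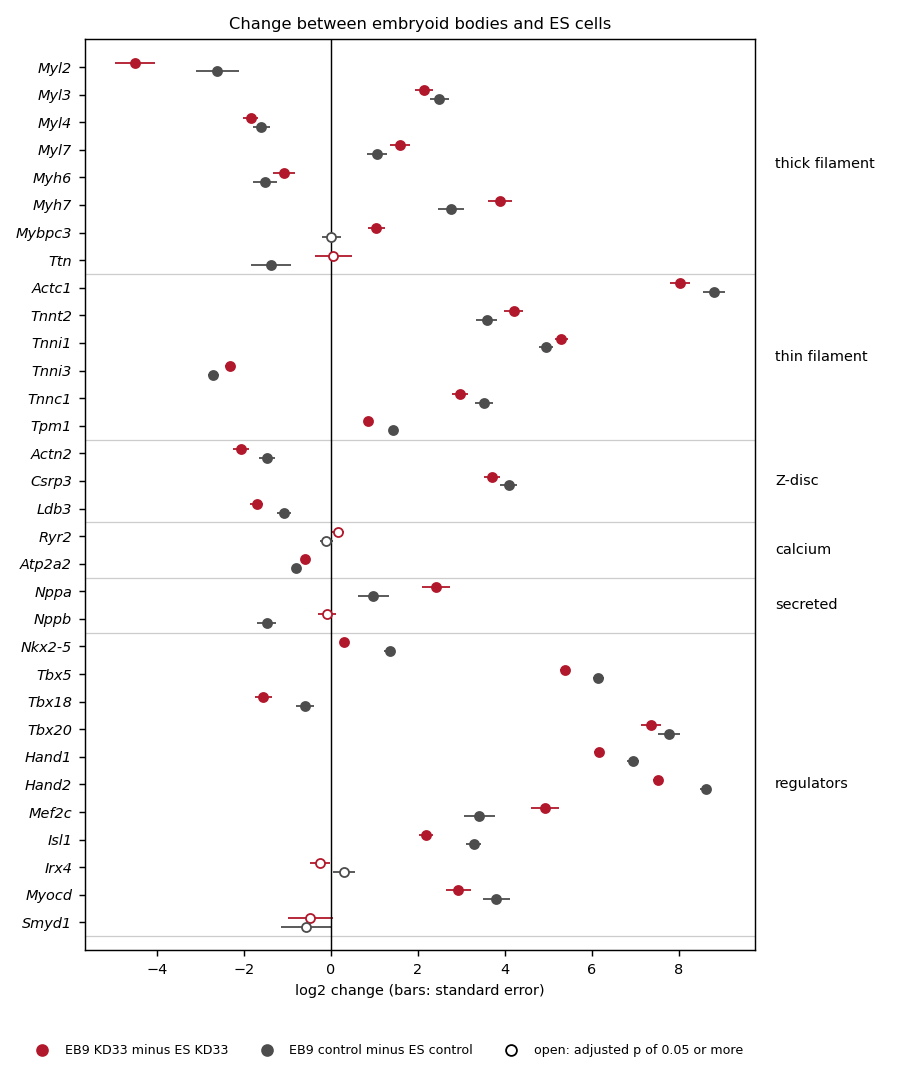
Log2 change between embryoid bodies and ES cells for the 32 kept members, grouped by role, on the x axis; dark red points are KD33 EB9 minus KD33 ES cells, grey points control EB9 minus control ES cells, bars the standard error, and filled points an adjusted p under 0.05. Regulators and thin filament genes reach 8.62 and 8.81 in the controls, while Tnni3, Myl2, Myl4 and Actn2 lie below 0 in both comparisons; values of genes below background in ES cells are fitted values, not bounds.

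In EB9 the sarcomere genes depended on the slide. On slide 1 the difference between KD33 and control EB9 was the lowest of the 4 slides for 14 of the 17 kept sarcomere members (82.4%), against 28.7% of all genes. For 8 of the 17 (47.1%) it was negative on slide 1 and positive on the other 3 slides, a pattern found in 6.1% of all genes. Myh7 shows it: its difference was −0.99 on slide 1 and 0.85 to 1.29 on the others, and its levels were 0.71, 1.78, 1.76 and 1.88 in KD33 EB9 and 1.70, 0.92, 0.47 and 0.61 in control EB9. Control 1 is thus the highest of its group and KD33 1 the lowest of its own.

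Over all 4 slides Myh7 changed by 0.61 in KD33 EB9 (SE 0.27, adjusted p = 0.167). Without the slide 1 arrays, a choice made after these values were seen, Myh7 changed by 1.14 (adjusted p = 0.00195), Myh6 by 0.90 (adjusted p = 0.0198), Mybpc3 by 0.77 (adjusted p = 0.0101), Tnnt2 by 0.50 (adjusted p = 0.0442) and Myl7 by 0.47 (adjusted p = 0.0401). Together with Nppa these made 6 members called higher and 0 lower, against 1 higher and 2 lower with slide 1. Without slide 1, 11.5% of all genes were called, 1346 higher and 1082 lower of 21184. Without EB9 control 1 alone 5 members were higher and 2 lower, where 16.5% of all genes were called, 1820 higher and 1675 lower. Of the 11 regulators, 4 had their lowest difference on slide 1 (Nkx2-5, Irx4, Myocd and Smyd1). For Hand1, Hand2, Tbx18, Tbx20, Isl1 and Mef2c slide 1 lay within the range of the other slides. Tbx5 had its highest difference on slide 1, at 0.19, against −0.12 to −0.08 on the others. Why slide 1 differs was not tested.

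**Figure D5:**
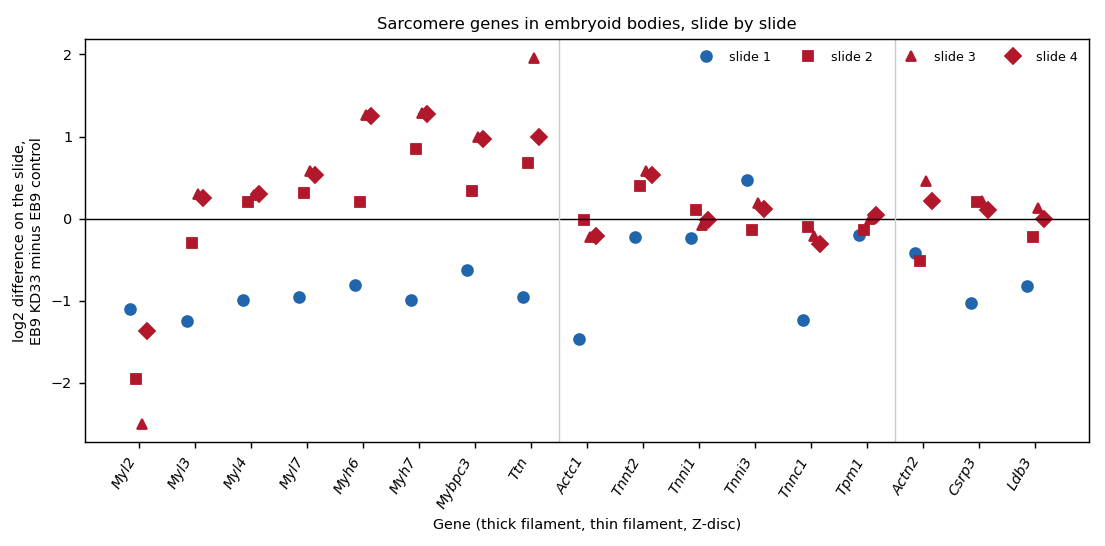
Difference between KD33 and control EB9 on each slide (y axis, log2), for the 17 kept sarcomere genes ordered by thick filament, thin filament and Z-disc (x axis); blue circles are slide 1 and red markers slides 2 to 4. For Myl4, Myl7, Myh6, Myh7, Mybpc3, Ttn, Tnnt2 and Csrp3 the blue circle lies below 0 and the red markers above it.

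Other genes of the heart programme, from lists chosen with the members, moved as follows. Over all genes 15.2% were called in KD33 EB9, 38.5% in KD33 ES cells and 74.8% in control EB9 against control ES cells. The lists here and below were not tested against these shares. Some of their counts lie near them, as for the conduction and further sarcomere lists in KD33 ES cells. Of 30 cardiac mesoderm genes tested, 3 were higher and 8 lower in KD33 EB9, and 12 were higher and 4 lower in KD33 ES cells. In KD33 EB9 the mesoderm factor T (−2.79, adjusted p = 0.000484) and Mesp1 (−1.67, adjusted p = 0.000588), an early marker of heart precursors, fell most, while Foxc2 (0.57) and Tbx1 (0.56) rose most. The ES comparison had Tbx1 (1.24, adjusted p = 3.07e-07) and Foxc1 (1.06) as its largest rises, and Eomes (−1.13) and Pdgfra (−0.81) as its largest falls. Tbx1 thus rose with the knockdown at both stages, where Nkx2-5, Hand2 and Isl1 rose only in the ES comparison, and for each of these 3 genes the difference between the stages was called. In control EB9 against control ES cells 22 of the 30 were higher and 2 lower: Bmp5 was at least 27.5-fold higher and Tbx2 51.0-fold higher, and Mesp2 and Tbx3 fell by 4.2 and 1.21.

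Of 17 conduction and calcium genes, 1 was higher and 6 lower in KD33 EB9. The connexin 40 gene Gja5 read −4.69 to −4.35 in KD33 EB9 and −3.67 to −2.78 in control EB9, a change of −1.40 (adjusted p = 0.000437). The potassium channel gene Kcnj5 read −3.66 to −3.58 in KD33 EB9 and −2.46 to −2.44 in control EB9, a change of −1.17 (adjusted p = 7.15e-05). Neither pair of groups overlaps, and Asph was the gene that rose (0.48). Among these genes 3 were higher in KD33 ES cells (Kcnq1 0.94 and Camk2d 0.76 most) and 4 lower (Casq2 at least 1.56-fold lower, Kcnh2 −0.44). In control EB9 10 were higher and 3 lower than in control ES cells. Kcnj5 (19.6-fold higher, both as fitted and as bound) and Cacnb2 (at least 3.87-fold) led the rises, and Casq1 (−3.48) and Cacna2d2 (−1.69) the falls.

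Of 22 further sarcomere and muscle metabolism genes, 0 were higher and 4 lower in KD33 EB9 by limma with Benjamini-Hochberg adjustment, with Xirp1 (−0.95) and Pdlim3 (−0.47) lowest. The same list had 4 genes higher and 5 lower in KD33 ES cells, and Pdlim3 was there among the highest (1.04), with Cox6a2 (1.22), while Popdc2 (−1.69) and Myom2 (−0.73) fell most. In control EB9 12 were higher (Ankrd1 4.76 and Popdc2 4.36 most) and 6 lower (Myom2 −4.87, and Mb at least 7.78-fold lower) than in control ES cells.

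Markers of other cells moved beside the members. Of 16 skeletal muscle genes, 5 were higher and 10 lower in control EB9 than in control ES cells. Their summed linear level was 2.80 to 3.80 in KD33 EB9, 2.82 to 3.47 in control EB9, 12.3 to 13 in KD33 ES cells and 12.2 to 13.1 in control ES cells. Acta1 and Tnnt3 rose by 6.08 and 4.33, Myh3 fell by 6.61, Mylpf was at least 4.54-fold lower, and Myog, Myh2, Mylpf and Chrna1 were below background on all EB9 arrays. The summed level of 8 smooth muscle genes was 44.3 to 47.7 in KD33 EB9, 43.1 to 56 in control EB9, 8.62 to 10.7 in KD33 ES cells and 7.08 to 9.53 in control ES cells, and Acta2 was 10.66 higher in control EB9 than in control ES cells. In that comparison 4 of the 8 were higher and 2 lower, and Synm (−2.22) and Cnn1 (−0.54) were those that fell. In KD33 EB9 against KD33 ES cells 4 were higher and 4 lower. Smooth muscle shares Tpm1 and Myocd with the heart, and its part in their rise was not tested.

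Visceral endoderm genes, from cells that surround the embryoid body, were higher in control EB9 for 12 of 12, with Afp at least 434-fold and Ttr at least 209-fold higher. In KD33 EB9 5 of these 12 were lower (Cubn −1.28 and Amn −1.22 most) and 0 higher. Their summed level there ranged from 21.6 to 52.3, against 34.7 to 43.3 in control EB9. Of the same genes 4 were lower in KD33 ES cells, led by Cubn (−1.33) and Hnf4a (−1.11). Endothelial genes were higher in control EB9 for 11 of 12 (Cdh5 at least 263-fold, Emcn at least 88-fold). In KD33 EB9 4 were lower (Etv2 −0.99, Sox17 −0.58 most), and Sox17 counts in the visceral endoderm list too. Blood genes were higher in control EB9 for 10 of 10, led by Hba-x (at least 1660-fold) and Hbb-bh1 (12.07). Of 11 genes of epicardium and fibroblasts, 9 were higher and 1 lower in control EB9, Col3a1 at least 2750-fold, Postn at least 2140-fold and Thy1 −3.84, and Wt1 rose by 1.06 in KD33 EB9 and by 1.02 in KD33 ES cells. Neural genes numbered 1 higher and 4 lower of 8 in control EB9 (Nes 1.51, Stmn2 −3.14, Tubb3 −2.43), and 4 higher and 1 lower in KD33 ES cells, with Olig2 at least 2.93-fold higher, Pax6 1.20 and Tubb3 −0.69.

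The ES cell markers themselves moved in KD33 EB9, where 5 of 12 were higher and 0 lower, with Dppa3 (1.06) and Klf2 (0.71) highest. Of the 12, 2 were higher in KD33 ES cells (Dppa3 1.45 and Pou5f1 0.38) and 2 lower (Klf4 −0.57 and Zfp42 −0.32). Over the cardiac members the summed linear level was 37.3 to 47.4 in KD33 EB9, 43 to 48.2 in control EB9, 21.4 to 23.3 in KD33 ES cells and 18.9 to 19.4 in control ES cells. The lowest of these EB9 sums is that of KD33 replicate 1, and the highest that of control replicate 1. Such a sum is weighted to bright members. Tpm1 averaged 4.02 in KD33 EB9, 4.09 in control EB9, 3.16 in KD33 ES cells and 2.66 in control ES cells (log2). What part the shifts in other cell types have in the members' changes was not tested.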

How the data were processed

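RNA was hybridised to 1-colour Agilent arrays (Cy3, build mm9), and the authors deposited one scanner file per array. Per the file headers these were made with Agilent Feature Extraction 10.7.3.1, and their processed signal is an intensity already corrected for background by that software. Its flags for outliers and for signals well above background (an other kind of value) were also taken from the deposited files. The authors' deposited log2 values were recomputed from the scanner files by normexp with an offset of 50 and quantile normalization, with a largest difference of 0.000154, and served as an alternative.

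Here each array's log2 processed signal was set relative to its 75th percentile, flagged features were left out, spots of a probe were averaged, and a gene was represented by its brightest kept probe. The genes were 21184, from 27250 kept probes of 39429; 79 genes had a missing value. limma 3.58.1 (R 4.3.3) fitted group means over all 15 arrays with Benjamini-Hochberg adjustment over all genes, and was tested on simulated data. The number of arrays limits the precision. Arrays of the same slide deviated together (correlation 0.215 to 0.632 over 21 pairs), while arrays sharing a label number did so only without the ES controls (0.225 to 0.552, against −0.591 to 0.367 with them). The slide was therefore the batch term of an alternative fit. The members and the gene lists were chosen with earlier results of these data known. From each list the text names up to 2 called genes with the largest change in each direction, and all members are accounted for. Alternatives were other background corrections and normalizations, filters, probe rules, blocks, array weights and leaving out arrays.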

Additional observations from a re-analysis of the deposited data

Results flagged for a closer look

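In 9 of 96 groups of 4 arrays 1 array lay far from the other 3, where chance gives about 5%. In EB9 these were KD33 replicate 1, low for Myl3 (−1.50), Myh7 (0.71), Ryr2 (−5.07) and Nppa (−4.55), and control replicate 1, high for Mybpc3 (−0.69) and low for Hand1 (2.76). In ES cells KD33 replicate 3 was low for Actc1 (−8.90) and high for Mef2c (−7.43), both below background, and high for Irx4 (−3.85).

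The knockdown effect in EB9 minus that in ES cells passed limma's test for 13 members. It was negative for Myl2 (−1.90), Isl1 (−1.12), Hand2 (−1.09), Nkx2-5 (−1.04), Tbx18 (−0.94), Hand1 (−0.78), Tbx5 (−0.76), Ldb3 (−0.62) and Tpm1 (−0.57). It was positive for Mef2c (1.51), Nppa (1.44), Nppb (1.39) and Mybpc3 (1.04). Nkx2-5, Hand2, Isl1, Hand1, Tpm1, Nppb and Mybpc3 kept this call under all 25 alternatives run for it. Tbx5 lost it in the authors' values, Tbx18 in 5 alternatives, Ldb3 in 12, Nppa and Mef2c in 13 each and Myl2 in 16.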

How the results depend on the processing

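The calls of Nkx2-5, Hand2, Isl1, Tbx5 and Tpm1 in KD33 ES cells held under all 26 alternatives. The number of genes called in KD33 EB9, 3211, became 5664 with the slide as a block, 5627 with array weights and 1133 with only the 2 groups compared, and 1807 to 4393 when single arrays were left out (1898 without EB9 KD33 3, 1807 without EB9 KD33 4, 2035 without EB9 control 4). In KD33 ES cells array weights gave 12310 genes against 8147. The members called in KD33 EB9, 3, became 8 with array weights, 6 without slide 1 (chosen after seeing the data), 0 with only the 2 groups compared, and 0 to 7 when single arrays were left out (0 without EB9 KD33 4, 1 without EB9 KD33 3 or control 4, 6 without EB9 KD33 2, 7 without EB9 control 1). At an unadjusted limma p under 0.05, 7 members passed in KD33 EB9 as reported, 4 with only the 2 groups compared and 6 without EB9 KD33 4. Those called in KD33 ES cells, 10, became 6 to 12 when single arrays were left out (6 without ES control 2 or 4), 14 with array weights and 14 with only the 2 groups compared. With the replicate block of label numbers 11 members were called in KD33 ES cells and 3 in KD33 EB9. Normexp correction gave 11 members higher and 0 lower in KD33 ES cells, against 7 and 3, and 2 higher and 1 lower in KD33 EB9, as did quantile normalization, against 1 and 2. In KD33 ES cells Mef2c was 0.01 with normexp, and Atp2a2 was 0.24 as the mean of its probes. The causes were not tested. Over single members, 2285 values with an array left out stayed on their side of the threshold, 88 lost the call and 27 gained it. The other alternatives gave 1619, 48 and 59, and 2 reversed. Signals near background limit Mef2c, Myl2, Tbx18 and the ES values of Tbx5.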
